A study of Mus musculus with 8 samples.

Results

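Elastic fibre genes and lysyl oxidases were examined in hearts that lack Mfap4, the gene of microfibril-associated protein 4. The genes were Eln, Mfap5, Lox, Loxl3 and Vtn, measured by 6 spotted cDNA clones of the 20160 clones on the array. They were chosen by the identifiers of the clones. In all, 1387 genes could be named on the array, so these 5 are a small part of them, and Lox alone was spotted as different clones. RNA came from hearts of 4 male mice on the C57BL/6N background, aged 19 weeks and of genotype MFAP4-/-. For each mouse, 2 arrays with opposite dye assignment set its RNA against a pool of heart RNA from male wild-type C57BL/6N mice of the same age. The channel labels list 4 mice in this pool, while the labelling protocol speaks of 6. No wild-type mouse was hybridised alone, so the spread between wild-type hearts is not in any value below. If the pool was not typical of wild-type hearts for a gene, the ratios of that gene would shift together in all 4 mice. The intervals and p-values below do not cover such a shift. The sources used here do not say how Mfap4 was disrupted.

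Elastic fibres give arteries, heart valves and the ventricular wall their recoil. They consist of a core of cross-linked elastin laid down on a scaffold of microfibrils, to which MFAP4 and MFAP5 belong. Lysyl oxidases are copper enzymes that convert lysine side chains of elastin and collagen so that neighbouring chains become covalently joined. MFAP4 was studied here as a ligand of integrins αVβ3 and αVβ5, and vitronectin, the product of Vtn, is the classical ligand of the same receptors.

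None of the 5 genes was shown to differ between knockout hearts and the pool. All 6 clones gave dim spots, and that limits every value below. A log2 ratio here is that of knockout over pool after background correction, so that 0 means equal signal. Of the 6 clones, 0 passed an adjusted p of 0.05 in limma, against 0% of all 20160 clones, and 0 passed an unadjusted p of 0.05, against 7.78% of all clones. Likewise 0 of 6 had the same sign in all 4 mice, against 17.0% of all clones. The median log2 ratio of the 6 clones was 0.063, with 5 above 0 and 1 below, and the median of all clones was -0.0037, with 9826 above 0 and 10334 below. In whole heart RNA, fewer cells of a type and less RNA per cell cannot be told apart.

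Signal over local background was low for every clone. A spot was taken as well above background where its median pixel intensity exceeded 2 times that of its surroundings. In the pool channel this held on 0 of 8 arrays for each of the 6 clones, with the highest quotient, 1.96, at Mfap5. In the channel of the knockout mouse it held on 4 of 8 arrays for Mfap5, on 1 of 8 for Eln and on 0 of 8 for the 4 other clones. No clone was well above background in both channels of an array, which was also the case for 82.7% of all clones. On 6 of the 8 arrays a larger share of all spots was well above background in the mouse than in the pool channel, most of all on the Cy3 array of mouse 2 (the array that carried its RNA in Cy3), at 35.9% against 8.03% in the pool channel. The count for Mfap5 is therefore no sign of a higher level in knockout hearts. For Eln and Mfap5, the knockout signal was set against the lowest pool signal well above background, or the clone's own pool signal where higher. After quantile normalization of the mean intensities between arrays, this gave a lower bound on knockout over pool that was under 1-fold for both clones. Such a bound shows neither a higher nor a lower level in knockout hearts. The 4 other clones were not well above background in either channel. The log2 ratios below are therefore quotients of signals near background, given with their spread, and measure no fold change in transcript level. Their sizes are not ranked between clones. Neither are levels compared between genes, since clones of different genes bind with different strength.

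**Figure D1:**
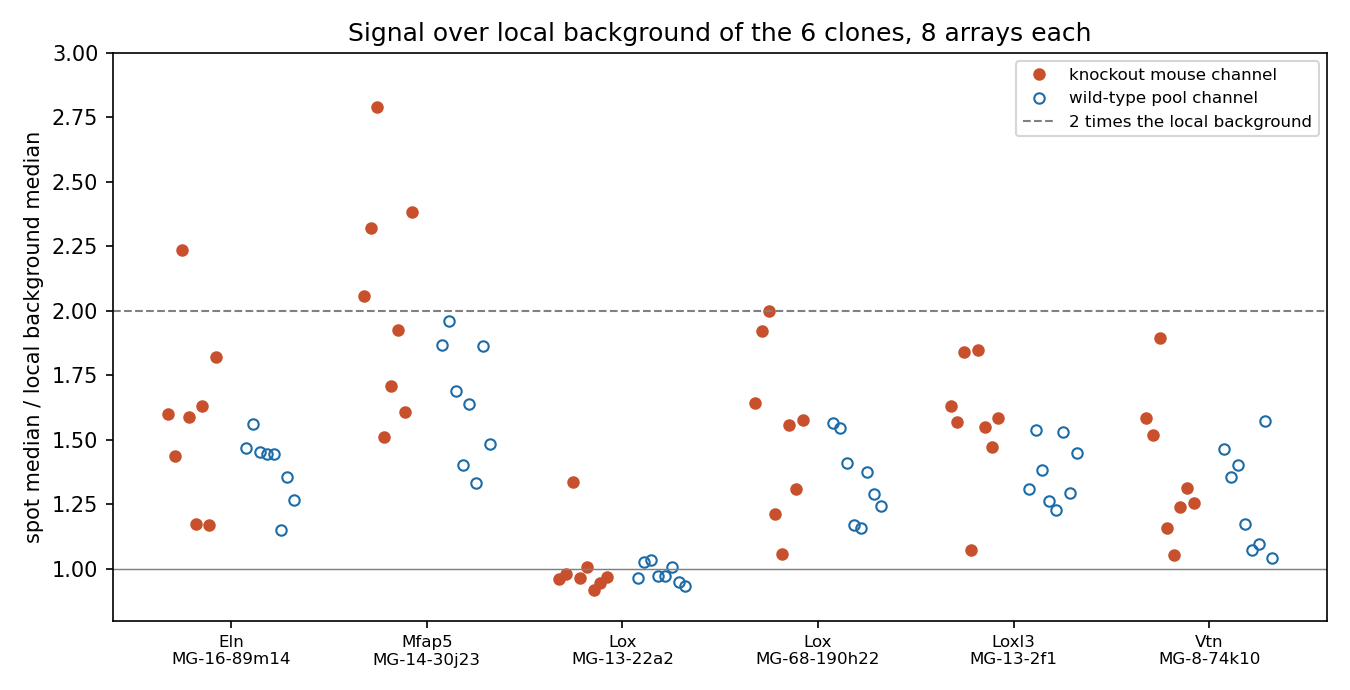
Spot median divided by local background median (vertical axis, no unit) for the 6 clones, with 8 arrays per clone and channel, knockout mice as filled and pool as open circles. The dashed line marks 2 times the background; all pool points lie under it, and 4 mouse points of Mfap5 and 1 of Eln lie above it.

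Elastin, the product of Eln (Entrez gene 13717, clone MG-16-89m14, spotted under the old accession AI480567), forms the rubber-like core of the fibre. The name of this clone rests on a RefSeq entry that lists its accession as a synonym of Eln, while the 5 other clones were named through a transcript accession, and no insert was checked by sequence. Over mice 1 to 4 its log2 ratio was -0.12, 0.13, -0.020 and -0.0081. The mice scattered on either side of 0, with mouse 2 alone above it. The mean was -0.0050 ± 0.084 (SE, n = 4 mice; limma adjusted p = 0.990), with a 95% interval from -0.20 to 0.18. The arrays behind this mean lay further apart than the mice. Arrays with the mouse in Cy3 ran from -0.55 to 0.063 and those in Cy5 from -0.18 to 0.51. In mouse 3 the spots lay at -0.55 and 0.51, and in mouse 4 at -0.30 and 0.29, so that opposite values cancelled in the mean of each mouse. The spot on the Cy3 array of mouse 4 carried a flag of the image software, with the code -50, which every flagged spot of these clones shared.

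Mfap5 (gene 50530, clone MG-14-30j23) encodes microfibril-associated protein 5, a small glycoprotein that binds fibrillin in microfibrils. It was the clone most often well above background and carried no flag on any array. Log2 ratios in mice 1 to 4 were 0.0026, 0.088, 0.26 and -0.094. Mouse 3 lay highest and mouse 4 lowest, and only mouse 4 lay below 0. The mean was 0.064 ± 0.090 (SE, n = 4 mice; limma adjusted p = 0.876), with a 95% interval from -0.14 to 0.27. On 5 of 8 arrays the value was above 0. In raw intensity the mouse spot stood between 78 and 297 above its background and the pool spot between 38 and 260.

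Lox (gene 16948) encodes lysyl oxidase, the founding member of the cross-linking enzymes, and was the only one of these genes with a clone that stood apart. Its clone MG-68-190h22 had log2 ratios of 0.16, 0.15, -0.20 and 0.14 in mice 1 to 4. Here the means of 3 mice lay within a narrow band and mouse 3 lay below 0. The arrays of mouse 1 lay far apart, at -0.24 in Cy3 and 0.55 in Cy5, so that the band is narrow for the means only. The mean was 0.063 ± 0.094 (SE, n = 4 mice; limma adjusted p = 0.884), with a 95% interval from -0.15 to 0.27. The Cy3 array of mouse 3 was the one on which this spot carried a flag, and its signal there was 9 above background in the mouse channel and 29 in the pool channel. The log2 ratio there was -0.30, and on the Cy5 array of that mouse, which carried no flag, it was -0.11. Without mouse 3 the mean was 0.15, and it did not pass the threshold.

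The other Lox clone, MG-13-22a2, gave a different pattern. In mice 1 to 4 it had log2 ratios of -0.039, 1.25, 0.015 and -0.026. Mouse 2 alone was high and the other mice lay close to 0. The mean was 0.30 ± 0.20 (SE, n = 4 mice; limma adjusted p = 0.729), with a 95% interval from -0.15 to 0.75. Its SD over the mice, 0.636, was higher than that of 99.1% of all clones. Both clones are named through the same Lox transcript accession, NM_010728, yet they differed by 1.10 in mouse 2 (MG-13-22a2 minus MG-68-190h22), against -0.20, 0.22 and -0.17 in mice 1, 3 and 4.

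**Figure D2:**
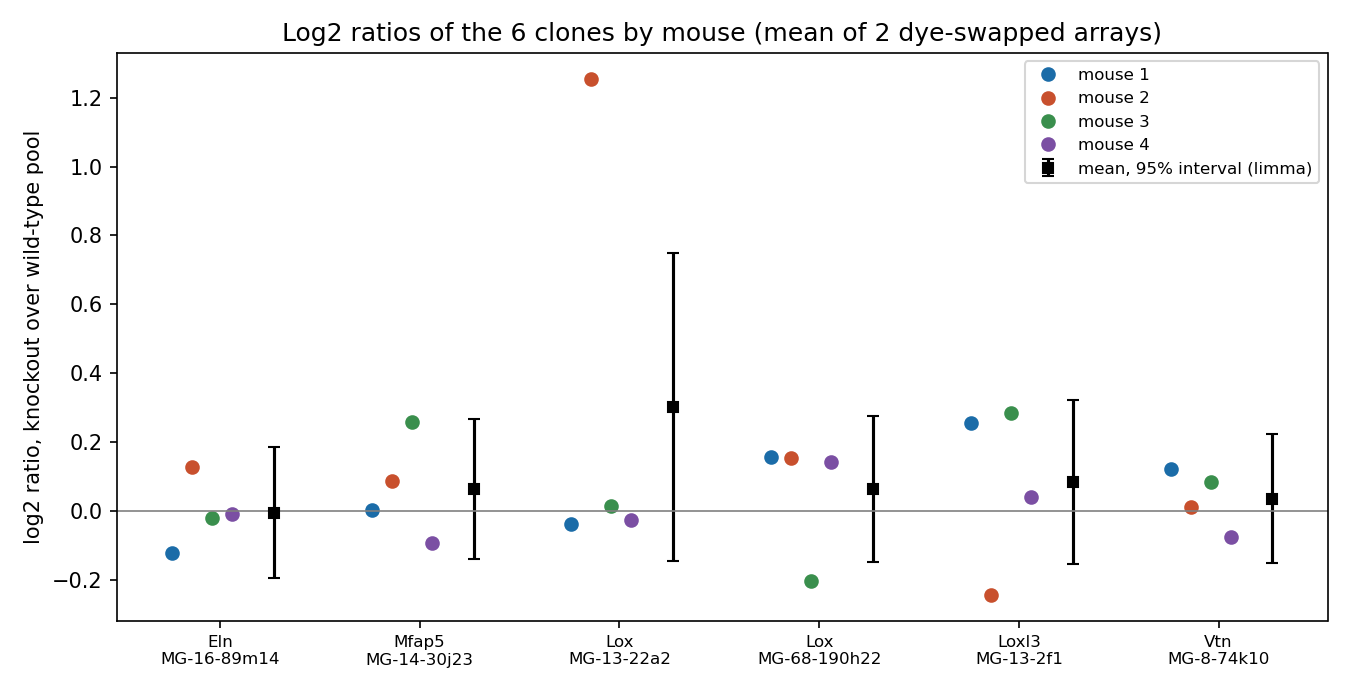
Log2 ratio of knockout over wild-type pool (vertical axis) for the 6 clones, with a coloured point per mouse (mean of its dye-swapped arrays) and a black square for the mean with the 95% interval of the limma fit. All intervals include 0, and the point of mouse 2 at 1.25 for Lox clone MG-13-22a2 stands far from the rest.

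The high value of mouse 2 came from a single spot. On its array with the mouse in Cy3, Lox clone MG-13-22a2 had a log2 ratio of 2.58, while on the array with the mouse in Cy5 it had -0.069. On the first of these the mouse channel read 1443 in the spot and 1078 in the local background, where the median local background of that array and channel was 115. Only 11 of 20205 spots there had a local background at least that high, this spot included. None of the pixels of the spot (0%) exceeded the background by over 2 SD, since the background pixels themselves had an SD of 1003. The spot thus stood only 1.34 times above a very bright surround. In the pool channel of the same array the spot read 236 and its background 228, which is ordinary for that array.

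The bright surround was not limited to this spot. Among 19 spots printed within 2 rows and 2 columns of it, the highest local background in that channel was 1629, the median was 197, and 2 had a log2 ratio above 1. On the other 7 arrays none of these neighbours had a log2 ratio above 1. What lay on the slide there was not tested.

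On the other 7 arrays this clone showed no signal that could be told from background. The spot minus its background lay between -9 and 1 in the mouse channel and between -9 and 6 in the pool channel. Log2 ratios on those arrays lay between -0.11 and 0.091. The spot carried a flag on all 4 arrays of mice 3 and 4. Without mouse 2 the mean was -0.017, and with mouse 2 represented by its Cy5 array alone it was -0.030. These values show that the size and the sign of the mean for this clone rest on that single spot.

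**Figure D3:**
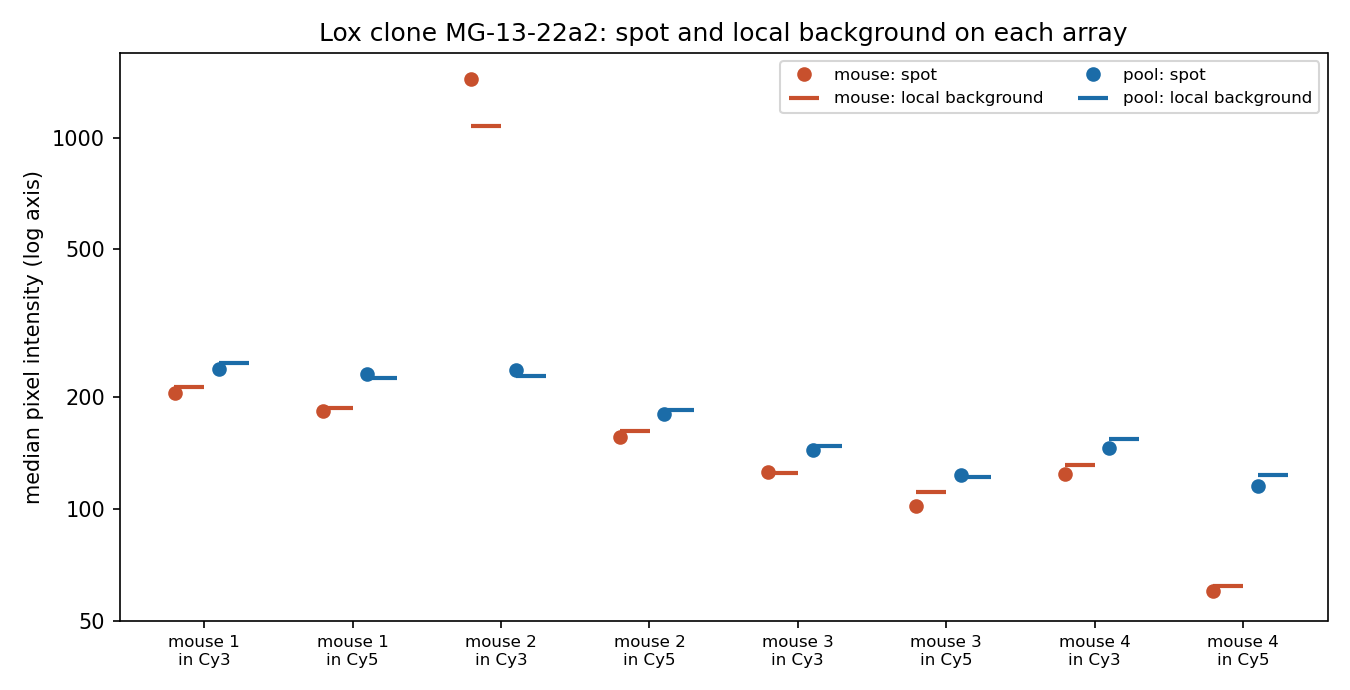
Median pixel intensity (vertical log axis) of the spot (circles) and of its local background (bars) for Lox clone MG-13-22a2 on the 8 arrays, mouse channel in orange and pool channel in blue. Spot and background nearly coincide everywhere except for the mouse channel on the Cy3 array of mouse 2, where both are raised, at 1443 and 1078.

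Loxl3 (gene 16950, clone MG-13-2f1) encodes a lysyl oxidase-like enzyme with scavenger receptor domains ahead of its catalytic part. Its log2 ratios were 0.25, -0.24, 0.28 and 0.040 in mice 1 to 4. Mouse 2 lay below 0 and the others above it, with mice 1 and 3 nearly level. The mean was 0.084 ± 0.105 (SE, n = 4 mice; limma adjusted p = 0.858), with a 95% interval from -0.15 to 0.32. No spot of this clone carried a flag.

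In Loxl3 the arrays of each mouse lay apart by dye. With the mouse in Cy3 the 4 arrays gave 0.44, 0.0027, 0.88 and 0.41 for mice 1 to 4, all above 0. With the mouse in Cy5 they gave 0.068, -0.49, -0.31 and -0.33, so that mouse 1 alone stayed above 0. Within each mouse the Cy5 array lay below the Cy3 array, with differences (Cy5 minus Cy3) from -1.20 to -0.37 on the log2 scale. The mean of Cy5 minus Cy3 was -0.70 ± 0.19 (SE, n = 4 mice; limma adjusted p = 0.0897), with a 95% interval from -1.14 to -0.26. It did not pass the threshold. Of the 6 clones, 0 passed this test of the dye difference, against 2.59% of all clones. A dye difference of this kind cancels in the mean of a mouse, where both orientations count equally.

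Vtn (gene 22370, clone MG-8-74k10) encodes vitronectin, an adhesive glycoprotein that the liver releases into plasma and that binds αV integrins. Mice 1 to 4 had log2 ratios of 0.12, 0.011, 0.084 and -0.077. Mouse 4 lay below 0 and the others above it. With a mean of 0.035 ± 0.083 (SE, n = 4 mice; limma adjusted p = 0.936) and a 95% interval from -0.15 to 0.22, its SD over the mice was 0.088. Flags marked its spot on 3 arrays, both of mouse 3 and the Cy5 array of mouse 4. On the arrays of mouse 3 the signal above background was 7 and 29 in the mouse channel and 12 on both in the pool channel.

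For Eln, Mfap5, Vtn and Lox clone MG-68-190h22 the dye difference had the opposite sign to that of Loxl3, and for none of them did it pass the threshold (limma adjusted p from 0.309 for Eln to 0.537 for the Lox clone). On the Cy3 arrays their means were -0.21, -0.045, -0.081 and -0.053, and on the Cy5 arrays 0.20, 0.17, 0.15 and 0.18. For Mfap5 and Vtn the Cy5 array was higher in 4 of 4 mice, and for Eln and this Lox clone in 3 of 4.

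**Figure D4:**
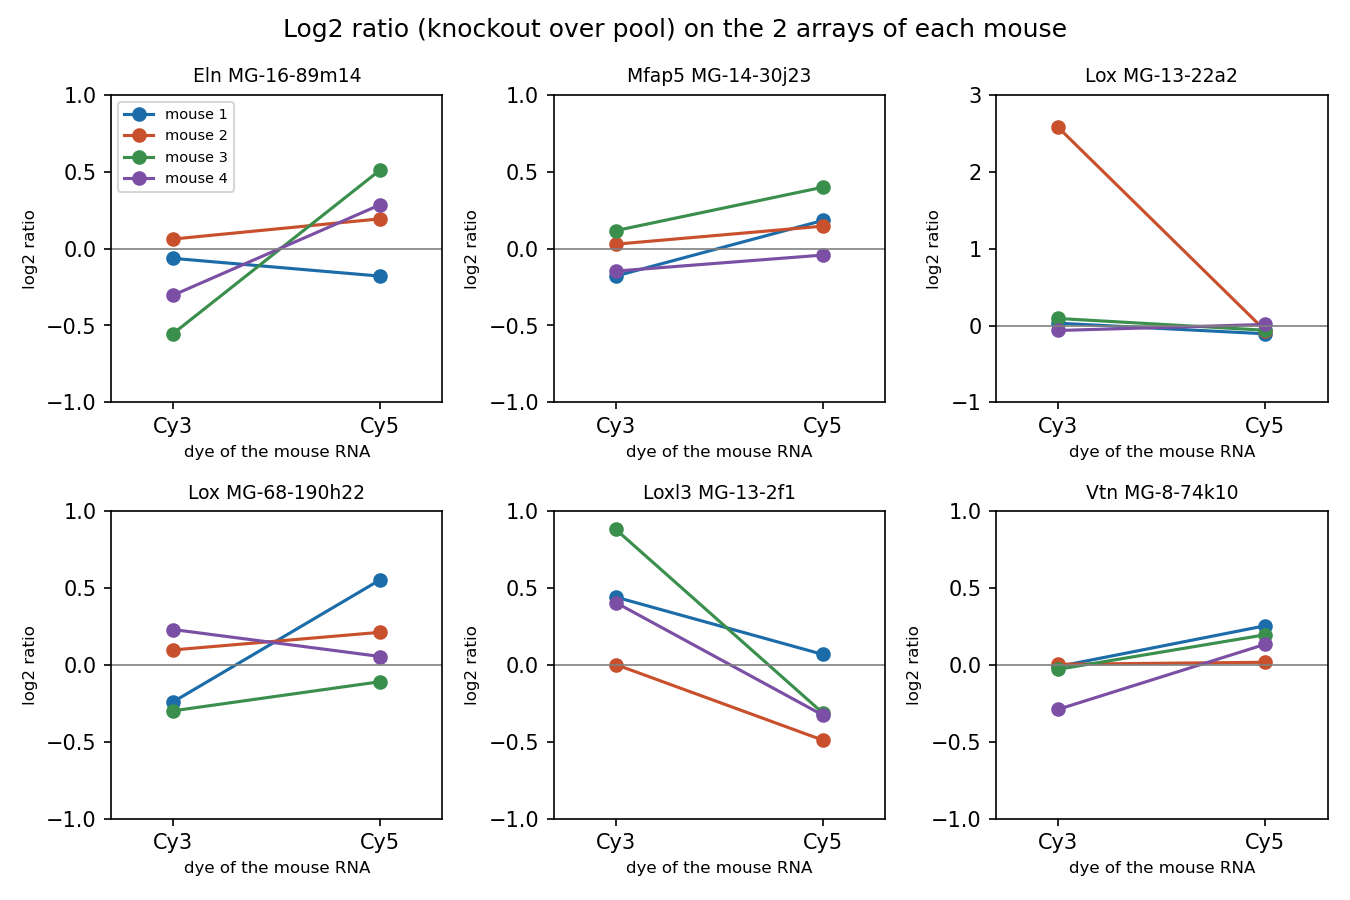
Log2 ratio of knockout over pool (vertical axis) on the arrays of each mouse, with the mouse RNA in Cy3 on the left and in Cy5 on the right of each panel, and a line per mouse. Lines for Loxl3 fall in all 4 mice, those for Mfap5 and Vtn rise in all 4, and Lox clone MG-13-22a2 has its single high array at 2.58 (its panel has a wider axis).

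Spot flags split the mice. On the arrays of mice 1 and 2 no spot of the slide was flagged, while on those of mice 3 and 4 between 28.2% and 43.0% of spots were, and 9 of the 48 spots of these clones were among them. The means of mice 1 and 2 against mice 3 and 4 were 0.0038 and -0.014 for Eln, 0.045 and 0.082 for Mfap5, 0.16 and -0.031 for Lox clone MG-68-190h22, 0.0057 and 0.16 for Loxl3, and 0.067 and 0.0033 for Vtn. For Lox clone MG-13-22a2 they were 0.61 and -0.0054.

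The elastic fibre list held 40 genes, and the array named 6 of them, the 5 above and Adamts10, a secreted metalloprotease that binds fibrillin. Of the 7 clones, 0 rose and 0 fell at the adjusted threshold, which 0% of all clones passed. All but Eln lay above 0, the median was 0.063, and 6 of the 7 are the clones described above. The mean of Adamts10 was 0.038 ± 0.088 (SE, n = 4 mice; limma adjusted p = 0.934), with mouse 2 at -0.15 and the others between 0.026 and 0.16. Mfap4 itself, the fibrillins Fbn1 and Fbn2, the fibulins and Loxl1, Loxl2 and Loxl4 were not matched to a clone by name, so the loss of Mfap4 was not checked here.

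A list of 30 genes for elastin turnover, TGF-β ligands and integrin receptors was also followed, of which the array named Mmp2, Timp3 and Tgfb3. Its 4 clones had a median of 0.0018, and 0 rose or fell at the adjusted threshold. Tgfb3, a ligand of the TGF-β family, which microfibrils store in latent form, lay lowest. It had log2 ratios of -0.73, 0.052, -0.44 and -0.079 in mice 1 to 4, so that mice 1 and 3 were low and the others near 0. Its mean was -0.30 ± 0.13 (SE, n = 4 mice; limma unadjusted p = 0.0441, adjusted p = 0.631). Its Cy3 arrays averaged 0.23 and its Cy5 arrays -0.83, and the clone was well above background in both channels on 0 of 8 arrays.

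Mmp2, a gelatinase that also degrades elastin, was the most scattered of these clones. It lay at 0.065, -0.43, 0.71 and -0.021 in mice 1 to 4, with mouse 2 low and mouse 3 high. The mean was 0.082 ± 0.16 (SE, n = 4 mice; limma adjusted p = 0.915). Timp3, a matrix-bound inhibitor of metalloproteases, was spotted as 2 clones at 0.023 ± 0.088 and -0.019 ± 0.093 (SE, n = 4 mice). In both Timp3 clones mouse 4 lay highest, at 0.20 and 0.21, and mouse 3 lowest, at -0.12 and -0.20.

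**Figure D5:**
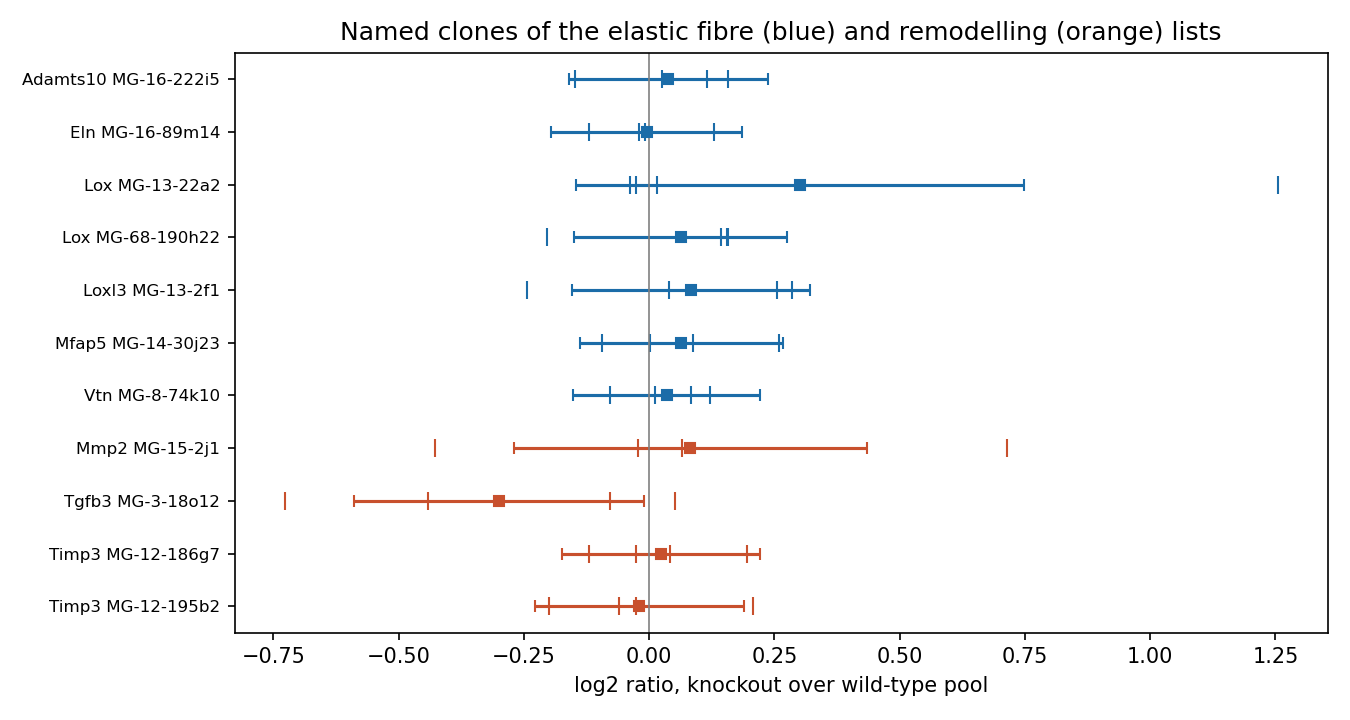
Log2 ratio of knockout over pool (horizontal axis) for every named clone of the elastic fibre list (blue) and of the list of elastin turnover, TGF-β ligands and integrin receptors (orange), with the mean and 95% interval of the limma fit and a tick per mouse. The interval of Tgfb3 alone excludes 0, before adjustment for the number of clones tested, and Mmp2 shows the widest scatter of mice of the orange clones.

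The tissue label was checked on heart muscle genes. Of 18 cardiomyocyte markers the array named Mybpc3 and Myom2, and both were well above background in both channels on 8 of 8 arrays. Markers of fibroblasts and smooth muscle, the cells that make elastic fibres, were thinly covered. The array named Ddr2 for fibroblasts and Notch3 for smooth muscle, at -0.14 ± 0.095 and 0.17 ± 0.092 (SE, n = 4 mice), and each was well above background in both channels on 0 of 8 arrays. No hepatocyte marker of 6 was named. The array named 1 of 6 endothelial markers, Vwf, at -0.046, and 1 of 4 red blood cell markers, Sptb, at 0.11, each well above background in both channels on 0 of 8 arrays. Of 5 macrophage markers it named C1qa, Csf1r and Lyz2, at -0.12, 0.16 and 0.18. C1qa and Csf1r were well above background in both channels on 0 of 8 arrays, and Lyz2 on 4 of 8. None of these marker clones passed the adjusted threshold.

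The bright named clones most like each clone over the 8 arrays were found by Pearson's r among 119 candidates. They were Zfand5 and Tomm40 for Eln (r = 0.782 and 0.761), Ednrb and Gmnn for Mfap5 (0.704 and 0.700), and Hspa4 and Fbxl18 for Loxl3 (0.849 and 0.840). For Vtn they were Ubl3 and Calml3 (0.757 and 0.752), and for Lox clone MG-68-190h22 Ddx3x and Ube2d3 (0.865 and 0.820). Tsc22d1 and Glud1 came out for the other Lox clone (0.883 and 0.847), where r rests on a single array. No gene was most like more than 1 of the clones. The 8 arrays share the pool and come from 4 mice in 2 dye orientations, so a dye effect that 2 clones share also raises r. Each r was also picked as 1 of the 2 highest of 119 over only 8 arrays, a choice that favours high values. These likenesses are descriptions.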

How the data were processed

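The clones and gene lists were chosen with earlier results of these data known. Per the file headers, the deposited scanner files give median pixel intensity of each spot and of its local background in the Cy5 and Cy3 channels, unnormalized, the percent of spot pixels above background by 2 SD, and a spot flag. The sources used here do not name the image software. The authors' deposited value table holds a score per spot that tracked background-subtracted log2 ratios, mouse over pool (Spearman's rho at least 0.998 across spots on each array). Its columns carry an unknown constant per array, with medians from -0.59 to 0.024.

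Background was corrected by normexp (offset 50), and each array was loess-normalized, in limma 3.58.1 (R 4.3.3), with all 20205 spots kept, flagged ones included. The dye labels set the direction of each ratio, knockout over pool. Spots of a clone, then the 2 arrays of a mouse, were averaged, giving n = 4 mice. All 20160 clones were tested against 0 with an intercept-only fit and eBayes, with Benjamini-Hochberg adjustment over all clones and a threshold of 0.05. The normexp offset draws ratios of dim spots towards 0. The number of mice (n = 4) limits the precision. The fit was tested on simulated data. The dye test was added after the data were seen, as were 2 alternatives.

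Clones were named through the RefSeq table of assembly GRCm38.p6: 964 spots matched a transcript and 500 a symbol or synonym. Named in the text are the 6 clones, every gene of the elastic fibre and turnover lists that the array names, the 2 most alike bright named clones of each, and every cell type marker that the array names. Bright means over 2 times the local background in both channels on at least 4 arrays. Random blocks used statmod 1.5.0. Figures were drawn with matplotlib 3.10.9.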

Additional observations from a re-analysis of the deposited data

Results flagged for a closer look

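The 6 clones were examined for single values far from the rest, over 4 mice and over 8 arrays. Of these 12 sets 3 stood out, and 0.60 would do so by chance if the sets were independent. They are not, since the value of a mouse is the mean of its arrays. Both sets of Lox clone MG-13-22a2 rest on the same spot. For Lox clone MG-13-22a2 the value of mouse 2 (1.25) was separated from that of the nearest mouse (0.015) by 0.959 of the whole range. Over the 8 arrays of this clone, the Cy3 array of mouse 2 (2.58) was separated from the nearest array (0.091) by 0.926 of the range. For Lox clone MG-68-190h22 the value of mouse 3 (-0.20) was separated from that of the nearest mouse (0.14) by 0.959 of the range. Over its 8 arrays no value stood out, and those of mouse 1 lay at -0.24 and 0.55. The spot on the Cy3 array of mouse 3 carried a flag, while its Cy5 array, without a flag, was also below 0, at -0.11.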

How the results depend on the processing

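No clone of the 5 genes passed the threshold under any setting that gave it a value. Signs were less stable, as values near 0 allow. The value of Eln became 0.0022 with an offset of 10, 0.012 with no background correction, 0.00011 with print-tip loess, 0.20 with the mouse in Cy5 alone and 0.011 with mouse 2 on its Cy5 array alone, and it lay lowest at -0.25 in the authors' table (-0.072 with each of its arrays centred). Leaving out each mouse gave -0.050 to 0.034 for Eln, -0.0012 to 0.12 for Mfap5, -0.017 to 0.41 for Lox clone MG-13-22a2, 0.031 to 0.15 for the other Lox clone, 0.017 (without mouse 3) to 0.19 (without mouse 2) for Loxl3, and 0.0058 (without mouse 1) to 0.072 (without mouse 4) for Vtn. Mfap5 lay at -0.0016 with no background correction, -0.045 with the mouse in Cy3 alone and -0.0055 in the authors' table. Lox clone MG-13-22a2 lay at -0.056 with the mouse in Cy5 alone and -0.030 with mouse 2 on its Cy5 array alone. For Lox clone MG-68-190h22 the values were -0.053 with the mouse in Cy3 alone, and -0.23 in the authors' table or -0.047 with each of its arrays centred. Loxl3 lay at -0.27 with the mouse in Cy5 alone, and at -0.21 and -0.034 in that table as deposited and centred. Vtn lay at -0.018 with median centring, -0.081 with the mouse in Cy3 alone and -0.068 in the authors' table. The cause of these turns was not tested. Leaving out flagged spots gave a value for Mfap5 and Loxl3 only, a test of bright clones for none, and Lox clone MG-13-22a2 had none with plain subtraction or in the authors' table. Across all clones, the limma count was 0 (1569 at an unadjusted p below 0.05), against 288 with the mouse in Cy5 alone and 55 in a fit of 8 arrays with a dye term. With the mouse in Cy3 alone it was 0. Arrays of a single orientation leave any dye difference in the ratio, so the 288, of which 258 were lower, do not count knockout changes alone. Signal near background limits every value here.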
